A study of Mus musculus with 6 samples.

Results

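The acute phase genes examined here encode 10 secreted proteins, most of them known for changing in blood during inflammation: serum amyloid A (Saa1, Saa2, Saa3 and Saa4), the orosomucoids (Orm1 and Orm2), haptoglobin (Hp), hemopexin (Hpx), lipocalin 2 (Lcn2) and C-reactive protein (Crp). They were chosen by gene symbol, and all 10 were found among the 55450 genes of the deposited table. The RNA came from the left liver lobe of 6 mice, 1 poly(A) library per mouse, with the strain given as C57BL/J. The knockout (KO) group was 3 LKB1 fl/fl mice given an adeno-associated virus with Cre recombinase (AAV8 Cre) at 6 weeks of age. The wild type (WT) group was 3 mice of normal genotype given the same virus at the same age. All were 10 weeks old when the livers were taken, 4 weeks after the virus. LKB1, encoded by Stk11, is a kinase that activates AMPK and related kinases. The labels do not name the promoter that drives Cre, and the virus serotype is one used to reach hepatocytes.

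In the acute phase response, cytokines such as interleukin 6 and interleukin 1 reach the hepatocyte and act through STAT3, NF-kB and C/EBP factors, with glucocorticoids as a co-signal. Positive reactants then increase in plasma, while negative reactants such as albumin and transthyretin decrease. Haptoglobin and hemopexin, the most abundant transcripts of the 10 genes here, bind free hemoglobin and free heme. The series title gives metabolic reprogramming of the liver as the subject. The comparison asks whether the RNA of these secreted proteins also differed between KO and WT liver.

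The libraries held 47659122 to 56147667 counts. Stk11 was at 22.1, 14.4 and 11.4 normalised counts (CPM, counts scaled by the TMM-adjusted library size) in KO 1 to 3 and at 66.1, 64.2 and 69.7 CPM in WT 1 to 3, and it fell by 2.06 ± 0.247 on the log2 scale (SE, n = 3 each, adjusted p = 0.0167 in edgeR's quasi-likelihood test). Hepatocyte markers were high in every library, with Alb at 57064 to 95626 CPM in WT and at 10394 to 50549.7 CPM in KO. KO 1 and WT 1 had 42472 and 29243 counts of Xist and at most 6 counts over Y-linked genes. KO 2, KO 3, WT 2 and WT 3 had 6146 to 8199 Y-linked counts and at most 16 of Xist. The labels do not give this split. KO 1 also stood apart from the other KO libraries, with a Pearson correlation across genes of 0.943 and 0.959 with KO 2 and KO 3 and of 0.968 with WT 1. KO 2 and KO 3 correlated at 0.983 with each other. WT 1 likewise correlated at 0.967 and 0.964 with WT 2 and WT 3, which correlated at 0.992 with each other. Results below are therefore also given for KO 2 and KO 3 against WT 2 and WT 3, called the Y-linked subset, and for KO 1 against WT 1, called the Xist pair, which has no replicate check. The p-values of the Y-linked subset rest on 2 mice a group, all of them also in the comparison of 6.

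The stretches upstream of the start are shown first because several of the 10 genes are known targets of the factors named above. RefSeq promoters (GRCm38.p6) were found for 8 of the 10 genes, all but Orm1 and Hp. The 200 bases from 250 to 51 bases upstream of the RefSeq start were searched on both strands. Lcn2 was left out of the counts, because its stretch lies inside the GENCODE gene given below and overlaps 2 of its exons, which leaves 7 genes. The stretch was set after the sequences had been seen, so the counts and the shares beside them are a description only. The letters were TTGCNNAA for C/EBP, TTCNNNGAA for STAT and GGGA and CC with 4 bases between them for NF-kB. The C/EBP letters occurred in 6 of the 7 stretches (Saa1, Saa2, Saa3, Saa4, Orm2 and Hpx, not Crp). The STAT letters and the NF-kB letters each occurred in 0 of 7. Of the same stretch in all 32851 RefSeq promoters, where none was left out for overlapping an exon, 8.11% held the C/EBP letters, 5.76% the STAT letters and 13.8% the NF-kB letters. A match of letters is a description and not a measured binding site. The serum amyloid A genes, Orm2 and Hpx are printed 5′ to 3′, with the C/EBP match in capitals.
Saa1, chr7:46743031-46743230, minus strand: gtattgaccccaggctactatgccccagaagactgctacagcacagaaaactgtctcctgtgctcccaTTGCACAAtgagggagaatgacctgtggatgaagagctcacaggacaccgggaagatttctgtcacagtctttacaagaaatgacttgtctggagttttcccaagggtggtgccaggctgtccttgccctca
Saa2, chr7:46751583-46751782, plus strand: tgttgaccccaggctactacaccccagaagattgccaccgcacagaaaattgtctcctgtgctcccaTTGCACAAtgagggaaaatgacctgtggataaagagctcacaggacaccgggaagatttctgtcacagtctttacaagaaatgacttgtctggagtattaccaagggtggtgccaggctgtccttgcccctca
Saa3, chr7:46715727-46715926, minus strand: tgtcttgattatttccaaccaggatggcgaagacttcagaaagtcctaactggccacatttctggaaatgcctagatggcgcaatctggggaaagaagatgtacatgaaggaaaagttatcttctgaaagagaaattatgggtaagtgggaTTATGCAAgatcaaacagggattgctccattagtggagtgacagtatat
Saa4, chr7:46732654-46732853, minus strand: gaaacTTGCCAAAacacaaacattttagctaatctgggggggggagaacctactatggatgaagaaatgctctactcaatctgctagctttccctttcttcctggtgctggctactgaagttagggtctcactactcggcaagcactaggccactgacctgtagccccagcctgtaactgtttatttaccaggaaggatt
Orm2, chr4:63362199-63362398, plus strand: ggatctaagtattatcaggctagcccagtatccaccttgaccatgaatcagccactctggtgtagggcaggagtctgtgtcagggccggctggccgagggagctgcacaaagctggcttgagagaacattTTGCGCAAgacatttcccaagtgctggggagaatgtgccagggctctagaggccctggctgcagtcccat
Hpx, chr7:105600167-105600366, minus strand: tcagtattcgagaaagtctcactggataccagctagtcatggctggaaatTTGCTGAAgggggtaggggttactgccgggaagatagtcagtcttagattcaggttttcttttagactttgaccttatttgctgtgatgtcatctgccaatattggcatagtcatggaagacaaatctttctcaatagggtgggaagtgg
The Saa1 and Saa2 stretches were 94.5% identical over 199 aligned bases, and they carry the same match, TTGCACAA. The Saa3 match, TTATGCAA, fits the letters on the opposite strand. Saa4 carries TTGCCAAA near the far end of its stretch, from 245 to 238 bases upstream.

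Levels per transcript length ordered the 10 genes over a wide range. In WT, Hpx stood first at 1873 ± 105 CPM per kb of transcript, followed by Hp at 1456 ± 82.3 CPM per kb, Orm1 at 504 ± 92.7 CPM per kb, Crp at 211 ± 16.0 CPM per kb and Saa4 at 90.0 ± 19.9 CPM per kb (SD, n = 3). Each of these 5 ranges lay clear of the next. Below them, Saa1 (20.6 ± 3.77 CPM per kb), Saa2 (11.3 ± 4.86 CPM per kb), Orm2 (7.41 ± 3.31 CPM per kb), Saa3 (5.18 ± 1.32 CPM per kb) and Lcn2 (2.65 ± 2.62 CPM per kb) had neighbouring ranges that overlapped. Saa1, Saa2, Saa3 and Lcn2, strongly induced in inflammation, were thus at the low end in these livers. In KO the order at the top was the same by the mean, with Hpx at 4741 ± 1852 CPM per kb and Hp at 2767 ± 1269.9 CPM per kb, and Saa4 was at 14.6 ± 18.2 CPM per kb.

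**Figure D1:**
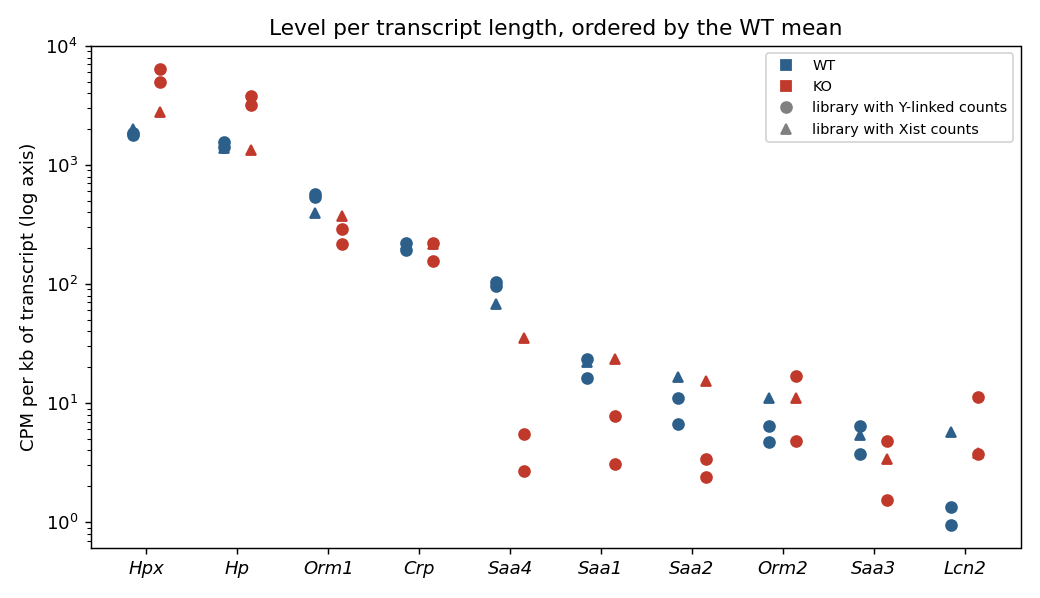
CPM per kb of transcript (log axis) for the 10 acute phase genes in each library, WT in blue and KO in red, circles for libraries with Y-linked counts and triangles for those with Xist counts. Hpx and Hp are highest in every library, and Saa4 spreads from 2.68 to 105 CPM per kb.

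Of the 10 genes, 0 passed the threshold of an adjusted p-value of 0.05 over all 6 libraries, where 3.37% of the 14539 tested genes did (490 genes, 313 higher and 177 lower in KO, edgeR's quasi-likelihood test). Scaled by library size alone, 380 genes were called up and 131 down. Before adjustment, 4 of the 10 genes had a p-value under 0.05 (Hpx and Hp with KO above WT, Orm1 and Saa4 below), against 26.3% of all tested genes. Limma voom called 0 of the 10 and DESeq2 called 2, Hpx and Orm1, where DESeq2 called 14.5% of the genes it adjusted. The KO and WT libraries did not overlap for 3 of the 10 genes, against 32.4% of all tested genes. Hpx lay higher in KO, as 16.9% of all tested genes did, and Saa4 and Orm1 lay lower, as 15.5% did. The median log2 fold change was -0.38 over the 10 genes and 0.01 over all tested genes, with 4 above 0 and 6 below. All 10 genes passed the filter on low counts. In the Y-linked subset, 7 of the 10 passed the threshold, where 33.3% of 14546 tested genes did. Hp, Hpx and Lcn2 rose there, against 17.2% of genes called higher, and Saa1, Saa2, Saa4 and Orm1 fell, against 16.1% called lower. With only KO 1 left out, 6 of the 10 passed, all of these but Lcn2, where 30.2% of tested genes did. The genes called in that subset thus lay on both sides of WT.

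**Figure D2:**
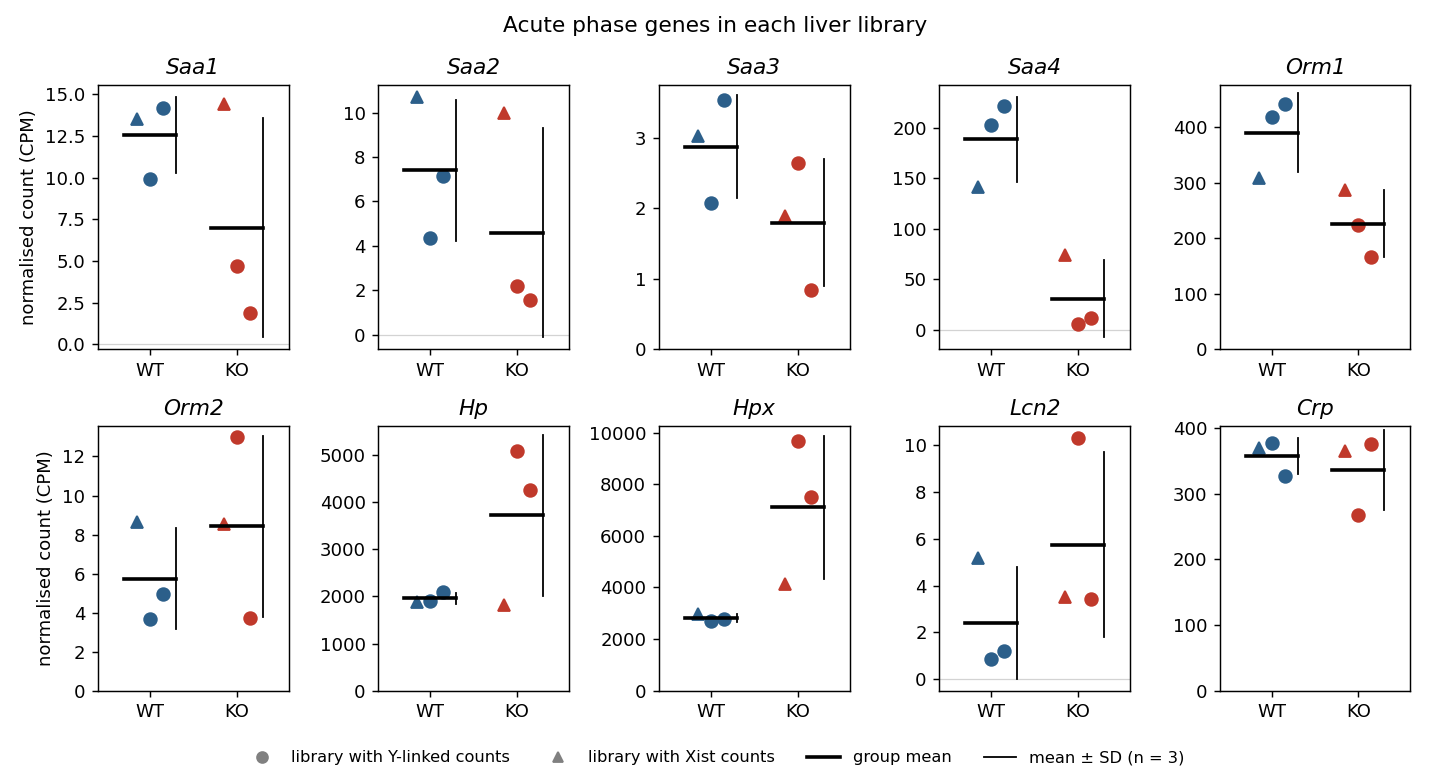
Normalised counts (CPM, linear axes) of the 10 acute phase genes in each library, with the group mean and SD (n = 3 each), circles for libraries with Y-linked counts and triangles for those with Xist counts. Hpx is the gene whose KO libraries all lie above WT, and Saa4 and Orm1 are those whose KO libraries all lie below.

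The scavengers of hemoglobin and heme had the highest counts. Hpx (ENSMUSG00000030895.9, GRCm38 chromosome 7, 105591613 to 105600137, minus strand), which carries free heme to the liver, was at 4147, 9653 and 7521 CPM in KO 1 to 3 and at 2983, 2679.6 and 2762 CPM in WT 1 to 3. All KO libraries lay above all WT libraries, and KO 1 was nearest to WT. The mean was 7107 ± 2777 CPM in KO and 2808 ± 157 CPM in WT (SD, n = 3), 2.53 times as high. edgeR gave a log2 ratio of KO to WT of 1.34 ± 0.344 (SE), adjusted p = 0.0756. The ratio was 1.65 ± 0.271 in the Y-linked subset (adjusted p = 0.00927 in edgeR) and 0.48 in the Xist pair.

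Hp (ENSMUSG00000031722.10, chromosome 8, 109575128 to 109579172, minus strand), whose product binds hemoglobin, was at 1809, 5094 and 4261 CPM in KO and at 1884, 1906 and 2086 CPM in WT. KO 2 and KO 3 were more than any WT library, whereas KO 1 was below all WT libraries. The log2 ratio was 0.93 ± 0.385 (SE, n = 3 each), its 95% interval ran from 0.01 to 1.84, and its adjusted p in edgeR was 0.186. In the Y-linked subset it was 1.22 ± 0.237 (adjusted p = 0.0148 in edgeR), and in the Xist pair it was -0.06. Hp and Hpx together made up 81.8% to 85.0% of the summed CPM of the 10 genes in WT and 88.6% to 96.5% in KO.

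The serum amyloid A genes lie side by side on chromosome 7 (GRCm38), in the order Saa3 (46711998 to 46715700, minus strand), Saa4 (46727998 to 46732603, minus), Saa1 (46740497 to 46742980, minus) and Saa2 (46751790 to 46754313, plus). Their proteins travel on high-density lipoprotein. Saa4 (ENSMUSG00000040017.8), known as the constitutive member of the family, was at 74.4, 5.62 and 11.6 CPM in KO 1 to 3 and at 141, 203 and 221 CPM in WT 1 to 3. Every KO library lay below every WT library, with KO 1 between the other KO libraries and WT. The mean was 30.5 ± 38.1 CPM in KO and 188 ± 41.6 CPM in WT (SD, n = 3). The log2 ratio was -2.62 ± 0.912 (SE), the largest in size of the 10 genes, but its adjusted p-value was 0.134 in edgeR. In the Y-linked subset Saa4 fell by 4.63 ± 0.370 on the log2 scale (adjusted p = 0.00119 in edgeR), and in the Xist pair its log2 ratio was -0.93. The difference between these was itself past the threshold, by 3.70 ± 0.571 on the log2 scale (SE, adjusted p = 0.0372, interaction term in edgeR), where 2.90% of all tested genes passed.

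Saa1 (ENSMUSG00000074115.5) and Saa2 (ENSMUSG00000057465.5) are the forms that the liver makes in the acute phase. Saa1 was at 14.4, 4.70 and 1.87 CPM in KO and at 13.5, 9.93 and 14.2 CPM in WT. Saa2 was at 10.0, 2.21 and 1.55 CPM in KO and at 10.7, 4.34 and 7.14 CPM in WT. For both genes KO 1 was level with WT 1, while KO 2 and KO 3 were the lowest of the 6 libraries. The log2 ratios over all 6 libraries were -0.84 ± 0.649 for Saa1 and -0.68 ± 0.713 for Saa2 (SE, n = 3 each), with adjusted p-values of 0.442 and 0.571 in edgeR. Within the Y-linked subset Saa1 fell by 1.87 and Saa2 by 1.61 on the log2 scale (adjusted p = 0.025 and 0.017 in edgeR), and in the Xist pair the log2 ratios were 0.10 and -0.09.

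The counts of these neighbours depend in part on how reads were divided. The Saa1 and Saa2 transcripts were 94.4% identical over 606 nt, and in 3 of the 6 libraries the deposited counts were not whole although their sum was, as in KO 1 with 838.64 and 583.36 counts, which sum to 1422. Summed before the fit, the pair was at 24.4, 6.91 and 3.42 CPM in KO and at 24.1, 14.3 and 21.4 CPM in WT, and its log2 ratio was -0.78 ± 0.660 (SE, adjusted p = 0.485 in edgeR).

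Saa3 (ENSMUSG00000040026.8), which is made mainly outside hepatocytes, in macrophages and fat cells among others, was near the bottom of the range. It had 1.89, 2.65 and 0.849 CPM in KO and 3.02, 2.08 and 3.53 CPM in WT, on 40 to 165 counts per library. The groups overlapped. Its log2 fold change was -0.68 ± 0.432 (SE, n = 3 each, adjusted p = 0.359 in edgeR), with -0.67 in the Y-linked subset (adjusted p = 0.391) and -0.68 in the Xist pair.

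The orosomucoids and Lcn2 belong to the lipocalins, small carriers of hydrophobic molecules. Orm1 (ENSMUSG00000039196.2, chromosome 4, 63344560 to 63348163, plus strand) was at 288, 224 and 167 CPM in KO and at 309, 419 and 443 CPM in WT. The highest KO library, KO 1, was just below the lowest WT library, WT 1, and these form the Xist pair. The mean was 226 ± 60.4 CPM in KO and 391 ± 71.9 CPM in WT (SD, n = 3). Its log2 ratio was -0.79 ± 0.251 (SE, adjusted p = 0.114 in edgeR). Orm1 in the Y-linked subset fell by 1.15 ± 0.189 on the log2 scale (adjusted p = 0.00928 in edgeR), and in the other pair its log2 ratio was -0.10. DESeq2 called it over all 6 libraries (log2 fold change -0.80, adjusted p = 0.0217).

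Orm2 (ENSMUSG00000061540.3, chromosome 4, 63362449 to 63365878, plus strand) had a low level, with 8.53, 13.0 and 3.71 CPM in KO and 8.62, 3.68 and 4.94 CPM in WT. Its groups overlapped, and its log2 fold change of 0.55 ± 0.491 had an adjusted p-value of 0.509 in edgeR (n = 3 each). The Orm1 and Orm2 transcripts were 91.0% identical over 775 nt and shared a run of 141 identical nt, longer than the reads of 76 nt. The deposited counts of both were not whole in 5 of 6 libraries, with whole sums. Orm1 was 17.2 to 114 times as high as Orm2, and the Orm2 count is the more uncertain of the pair. Orm3, which lies between them, had at most 41 counts in a library.

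Lcn2 (ENSMUSG00000026822.14, chromosome 2, 32384633 to 32388252, minus strand), which binds bacterial siderophores and limits their uptake of iron, was at 3.52, 10.3 and 3.42 CPM in KO and at 5.18, 0.868 and 1.22 CPM in WT. KO 2 was the highest library and WT 1 the next, so the groups overlapped. The log2 ratio was 1.25 ± 0.764 (SE, n = 3 each), its 95% interval ran from -0.56 to 3.06, and its adjusted p in edgeR was 0.339. Lcn2 rose in the Y-linked subset, with a log2 ratio of 2.72 ± 0.569 (SE, adjusted p = 0.0188 in edgeR), whereas in the Xist pair it was lower in KO, with a log2 ratio of -0.56. The WT libraries of that subset, WT 2 and WT 3, had 45 and 57 counts. With WT 1 kept and only KO 1 left out, its adjusted p in edgeR was 0.216.

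Crp (ENSMUSG00000037942.5, chromosome 1, 172698055 to 172833031, plus strand) encodes a pentraxin that is a strong reactant in humans and a weak one in mice. It was at 366, 267 and 376 CPM in KO and at 369.7, 377 and 327 CPM in WT. KO 2 was the lowest library, and the groups overlapped. The log2 ratio was -0.09 ± 0.189 (SE, n = 3 each), its 95% interval ran from -0.54 to 0.36, and its adjusted p in edgeR was 0.796. Crp was the steadiest of the 10 genes by the ratio of highest to lowest library in KO, 1.41, whereas Saa4 had 13.2.

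**Figure D3:**
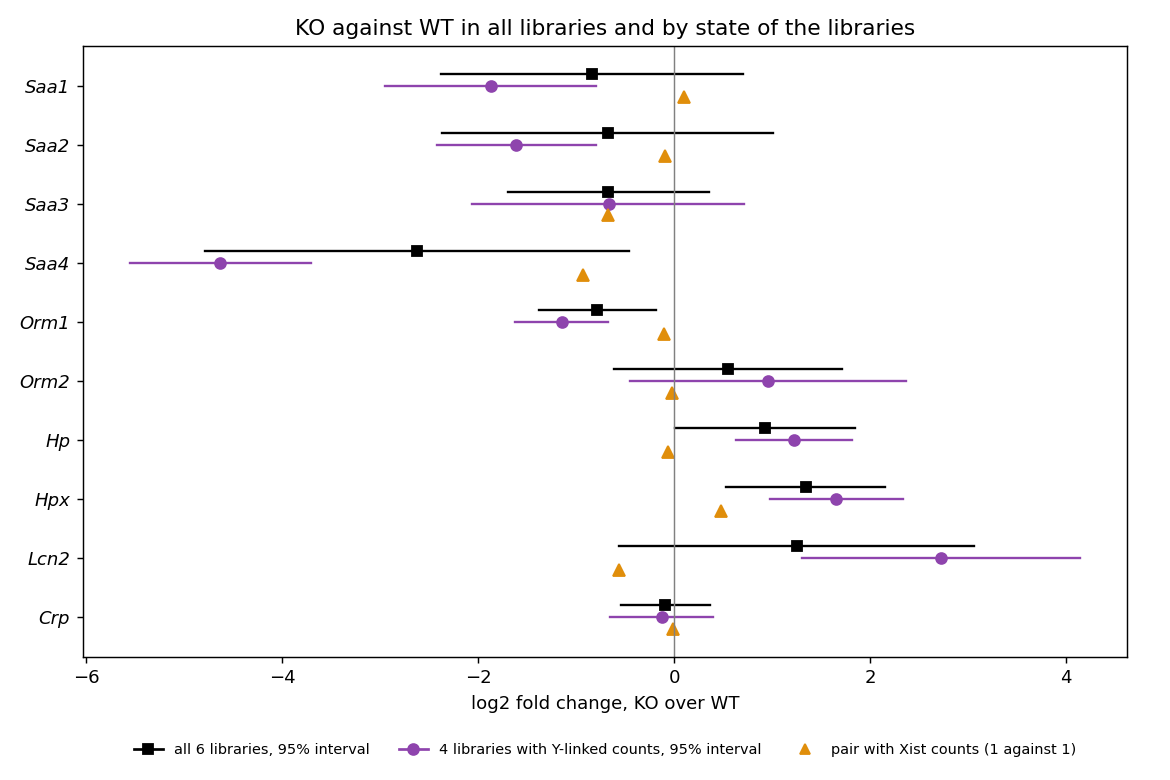
Log2 fold change of KO over WT for each gene in all 6 libraries (black squares) and among the 4 libraries that have Y-linked counts (purple circles), both with 95% intervals, and the log2 ratio of the pair with Xist counts (orange triangles). Saa4 lies at -4.63 and -0.93 in the subsets, and Crp lies near 0 in both.

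Other positive reactants, from a list of 21 genes of which 19 were tested, also went in both directions. In KO, edgeR called 0 higher and 1 lower, where the calls over all tested genes were 2.15% and 1.22%. Of the 19, 10 had an unadjusted p under 0.05, 4 higher and 6 lower in KO, against 26.3% of all tested genes. The median log2 fold change was -0.07. Lrg1, a leucine-rich glycoprotein of plasma, fell from 112, 154 and 217 CPM in WT to 73.6, 68.0 and 57.5 CPM in KO, by -1.28 ± 0.254 on the log2 scale (SE, n = 3 each, adjusted p = 0.0481 in edgeR). Lrg1 was thus lower in every KO library, as Saa4 and Orm1 were. Fgb, a chain of fibrinogen, was at 3039.5, 1156 and 1667 CPM in KO and at 4425, 3986 and 3995 CPM in WT (adjusted p = 0.132 in edgeR). The other fibrinogen chains, Fga and Fgg, had log2 fold changes of -1.52 and -1.46 and no overlap between groups, with adjusted p-values of 0.151 and 0.172 in edgeR. Serpina3n, an inhibitor of serine proteases, was at 248, 77.3 and 63.9 CPM in KO and at 266, 233 and 199 CPM in WT (adjusted p = 0.332 in edgeR).

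On the other side, the metallothioneins Mt1 and Mt2, which bind zinc and copper, were higher in every KO library, Mt1 at 106, 166 and 201 CPM against 31.5, 5.61 and 2.91 CPM. Their log2 fold changes were 3.56 and 4.30, with adjusted p-values of 0.0738 and 0.085 in edgeR. Apcs, serum amyloid P, a main pentraxin of the mouse acute phase, was at 46.6, 76.6 and 81.6 CPM in KO and at 81.8, 50.4 and 41.2 CPM in WT, and Lbp, which binds bacterial lipopolysaccharide, at 84.6, 121 and 136 CPM and at 100.2, 87.6 and 81.4 CPM. Neither passed the threshold (adjusted p = 0.656 and 0.319 in edgeR). For both, KO 2 and KO 3 were above WT 2 and WT 3 and KO 1 was below WT 1.

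Of 8 negative reactants edgeR called 0, with 2 at an unadjusted p under 0.05, against 26.3% of all tested genes. Of these 8 genes 7 had a log2 fold change below 0 and the median was -0.75. Alb, albumin, was at 50549.7, 10394 and 17534 CPM in KO and at 95626, 69977 and 57064 CPM in WT, with a log2 ratio of -1.50 ± 0.635 (SE, n = 3 each, adjusted p = 0.190 in edgeR). Ttr, transthyretin, had -1.15 and Apoa1, the main protein of high-density lipoprotein, had -2.07, with adjusted p-values of 0.0775 and 0.0568 in edgeR and no overlap between groups. In bulk tissue, fewer cells of a type and less RNA per cell cannot be told apart, for these genes and for the 10 above.

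**Figure D4:**
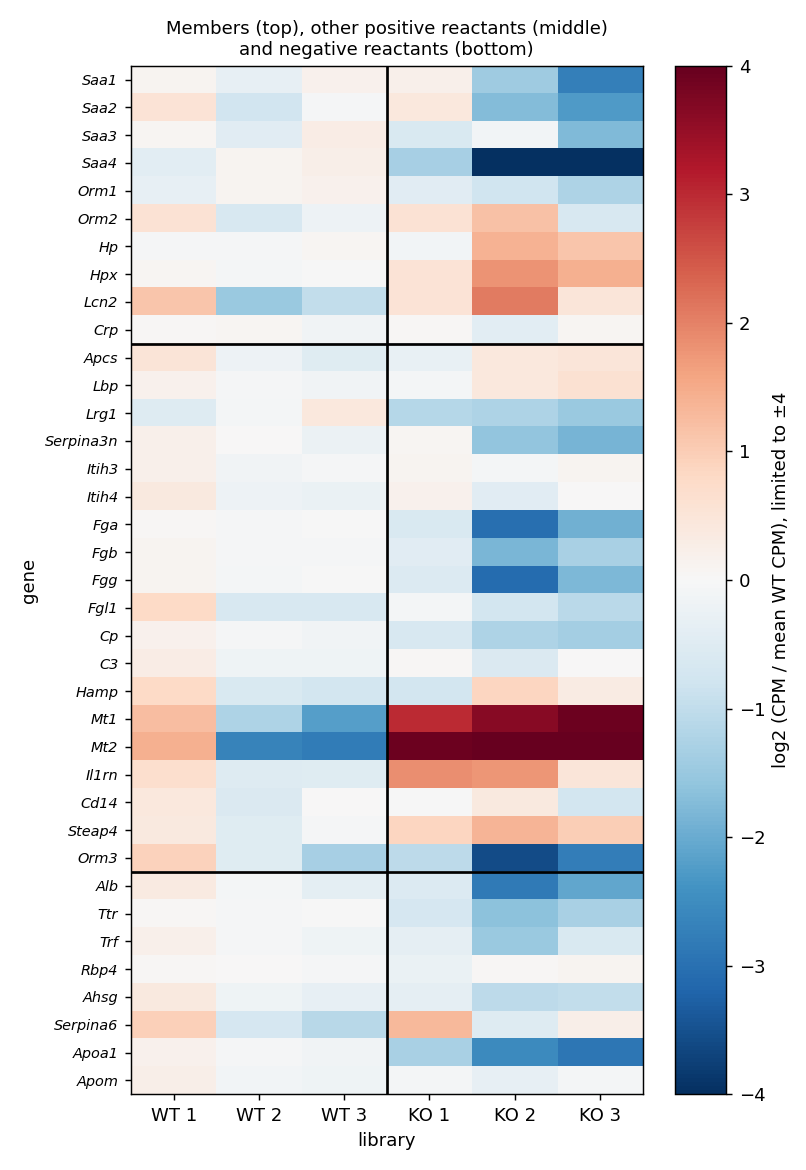
Log2 of each library's CPM over the mean WT CPM, limited to ±4, for the 10 acute phase genes (top), 19 other positive reactants (middle) and 8 negative reactants (bottom). KO 2 and KO 3 depart most from WT, with Hpx, Hp, Mt1 and Mt2 above it and Saa4, the fibrinogen genes and Alb below it, and KO 1 lies nearer to WT for Hp, Saa1 and Saa2.

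Genes of the cytokine signal were examined as the known input. Il6 had at most 4 counts in a library, and of 9 cytokines 3 passed the filter and 0 were called by edgeR. All 3 had an unadjusted p under 0.05. Il1b and Il1a were below WT in every KO library, with log2 fold changes of -1.47 and -0.77 (adjusted p = 0.0933 and 0.142 in edgeR). Clcf1 was above WT in every KO library, with a log2 fold change of 2.24 (adjusted p = 0.0769 in edgeR). Of 10 receptors 0 were called and 6 had an unadjusted p under 0.05, 3 in each direction. For cytokines and receptors alike, the share with an unadjusted p under 0.05 over all tested genes was 26.3%. Il6ra, which binds interleukin 6, was at 16.5, 21 and 24.9 CPM in KO and at 41.0, 28.8 and 33.7 CPM in WT (adjusted p = 0.0828 in edgeR). Il6st, the shared signalling subunit, was at 121, 109.8 and 108 CPM in KO and at 183, 166 and 175 CPM in WT, with a log2 ratio of -0.63 ± 0.130 (SE, adjusted p = 0.0525 in edgeR). KO libraries were below WT libraries for both receptor subunits.

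Of 11 kinases and transcription factors 0 were called and 3 had an unadjusted p under 0.05, against 26.3% of all tested genes. Stat3 was at 113, 133 and 159 CPM in KO and at 97.4, 95.5 and 94.9 CPM in WT (adjusted p = 0.118 in edgeR). Cebpb was at 12.8, 33.0 and 24.6 CPM in KO and at 12.2, 15.8 and 15.2 CPM in WT (adjusted p = 0.222), and Cebpd had a log2 fold change of 0.21 (adjusted p = 0.710). Of 8 feedback genes, 7 were tested and 0 called, with 4 at an unadjusted p under 0.05, against the same 26.3%. Socs3, the inhibitor that STAT3 induces, was at 3.81, 15.4 and 9 CPM in KO and at 4.75, 2.74 and 2.93 CPM in WT (adjusted p = 0.134 in edgeR). As with Hp, KO 2 and KO 3 were above all WT libraries and KO 1 was not. In the Y-linked subset its log2 ratio was 2.10 (adjusted p = 0.0053 in edgeR).

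The glucocorticoid list had 7 tested genes, 1 called higher and 0 lower, against 2.15% and 1.22% of all tested genes. Its median log2 fold change was 1.03, against 0.01 over all tested genes. Tat, tyrosine aminotransferase, rose from 1058, 1165 and 1190.3 CPM in WT to 3005, 3409 and 5971 CPM in KO (log2 ratio 1.86 ± 0.314, SE, n = 3 each, adjusted p = 0.0344 in edgeR). Nr3c1, the glucocorticoid receptor, was at 74.4, 62.9 and 66.0 CPM in KO and at 103, 99.4 and 93.2 CPM in WT (adjusted p = 0.0637). Nr3c1 and Tat thus lay on opposite sides of WT. Of the 7 genes 5 had an unadjusted p under 0.05, 3 higher and 2 lower in KO, against 26.3% of all tested genes. Tat is also known as a target of glucagon and cyclic AMP. Neither Tat nor Lrg1 was called when KO 2, KO 3, WT 2 or WT 3 was left out.

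Of 11 receptors and binding partners of the 10 proteins 0 were called and 3 had an unadjusted p under 0.05, against 26.3% of all tested genes. Cd163, the macrophage receptor for haptoglobin bound to hemoglobin, was at 8.20, 2.16 and 2.44 CPM in KO and at 8.30, 6.90 and 9.75 CPM in WT. Lrp1, the receptor for hemopexin bound to heme, was at 771, 262 and 431 CPM in KO and at 756, 780.1 and 893 CPM in WT. In KO 2 and KO 3, where Hp and Hpx were highest, both receptors were at their lowest. A link between them was not tested, and 33.3% of all tested genes were called in the Y-linked subset. Their adjusted p-values over all 6 libraries were 0.282 and 0.267 in edgeR, and in the Y-linked subset both fell (0.00423 and 0.0202). Hmox1, which degrades heme, was at 15.1, 29.8 and 27.6 CPM in KO and at 10.6, 10.6 and 11.2 CPM in WT (adjusted p = 0.0566 in edgeR). Slc22a17, a receptor for Lcn2, was at most 0.686 CPM.

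Markers of other cells that express some of these genes were followed over the same libraries. Of 11 neutrophil markers, a cell type that carries Lcn2 and Hp, 3 passed the filter, 5 had at most 3 counts in every library and Ly6g was at 0 in all. The summed level was 1.17 to 2.37 CPM in KO and 0.887 to 1.24 CPM in WT. S100a9 was at 0.463, 0.324 and 0.382 CPM in KO and at 0.158, 0.0964 and 0.107 CPM in WT (adjusted p = 0.0684 in edgeR), and S100a8 was at most 0.274 CPM. Of 11 Kupffer cell and macrophage markers 0 were called and 0 had an unadjusted p under 0.05, against 26.3% of all tested genes. Their sum was 313, 186 and 141 CPM in KO 1 to 3 and 203 to 279.8 CPM in WT. Clec4f was at 67.7, 38.8 and 31.0 CPM in KO and 44.7 to 58.8 CPM in WT, and Adgre1 at 14.4, 4.39 and 4.18 CPM in KO and 8.91 to 11.7 CPM in WT. For Clec4f and Adgre1, KO 1 was above all WT libraries and KO 2 and KO 3 were below. Marco, named after its values were seen, went the other way, at 7.46, 12.2 and 9.15 CPM in KO and 5.01 to 8.50 CPM in WT. In the Y-linked subset 1 of the 11 markers was called higher (Marco) and 5 lower, against 17.2% and 16.1% of tested genes. Their part in the levels of Saa3, Lcn2 and Hp was not tested.

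Of 7 adipocyte markers 2 passed the filter, Adipoq had at most 3 counts, and Lep and Retn were at 0 in all libraries. The 2 tested were Cidec and Fabp4. Cidec was above WT in every KO library, at 0.995, 8.3 and 1.21 CPM against 0.513, 0.521 and 0.663 CPM (adjusted p = 0.12 in edgeR). Fabp4 overlapped between groups, with a log2 fold change of -0.46 (adjusted p = 0.444 in edgeR). Of 8 lymphocyte markers 7 were tested, with a median log2 fold change of -1.36. Of these 0 were called and 2 had an unadjusted p under 0.05, against 26.3% of all tested genes. Their summed level was low, at 1.12 to 3.36 CPM in KO and 3.88 to 4.85 CPM in WT. The 8 liver endothelial markers had a median of -0.75, 0 calls and 7 with an unadjusted p-value under 0.05, against 26.3% of all tested genes. Among the 10 hepatocyte markers the median log2 ratio was -0.83, with 6 below 0. All KO libraries lay below WT for 5 of them and above WT for 3, against 15.5% and 16.9% of all tested genes. Alb, Ttr, Apoa1 and Fgb are also among the reactants above. In the Y-linked subset 1 marker was called higher and 5 lower, against 17.2% and 16.1% of tested genes. Over all 6 libraries 1 was called, higher in KO, against 2.15% of all tested genes. It was Ass1, the urea cycle enzyme argininosuccinate synthetase. Ass1 rose from 2299, 2528 and 2412 CPM in WT to 8122, 6545 and 12627 CPM in KO (adjusted p = 0.0325 in edgeR).

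**Figure D5:**
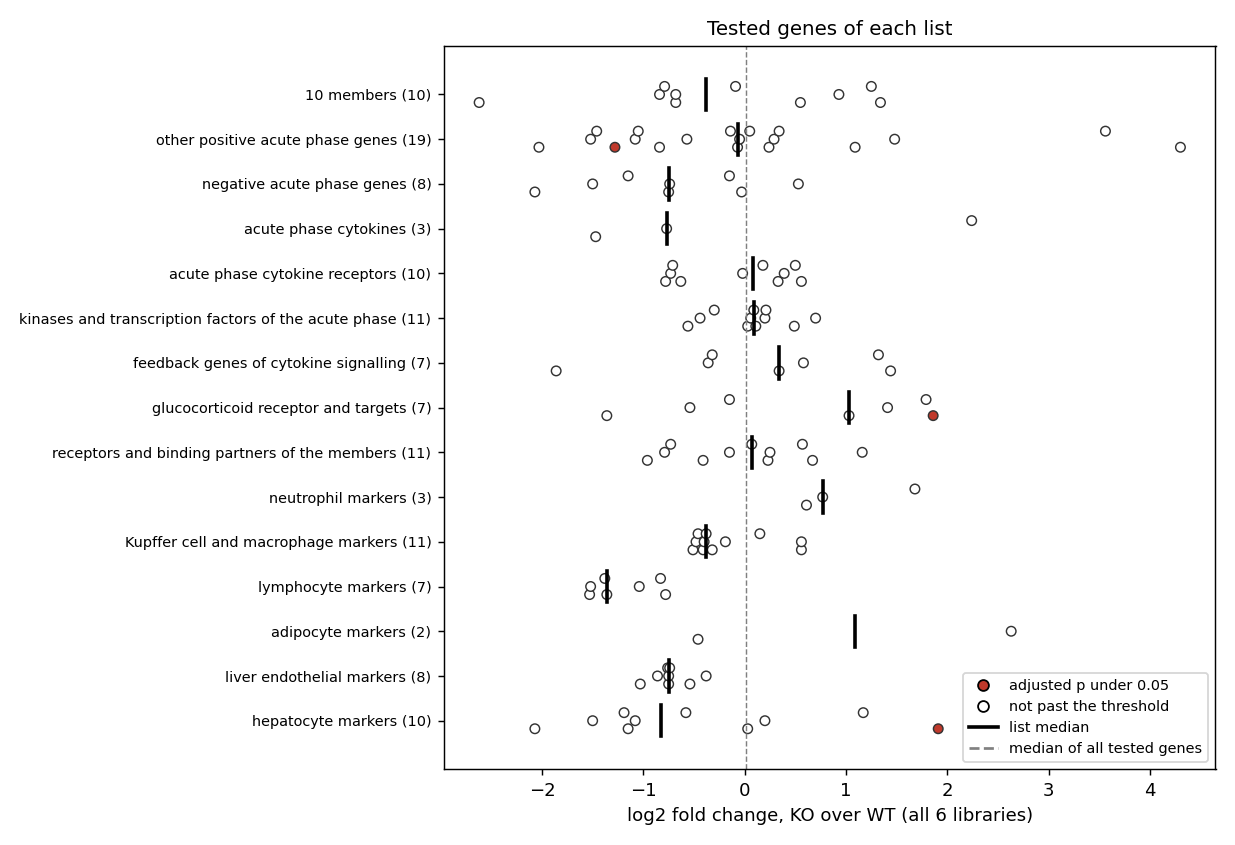
Log2 fold change (KO over WT, all 6 libraries) of each tested gene by list (the 10 acute phase genes are listed as members), filled where the adjusted p-value was under 0.05, with the list median as a bar and the median of all tested genes, 0.01, as a dashed line. The number of tested genes follows each list's name, and the called genes are Lrg1, Tat and Ass1.

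Genes with profiles most like the acute phase genes were taken as those with the smallest root mean square difference of centred log2 CPM over the 6 libraries, among genes with a mean of at least 10 CPM. For Hpx these were Hspb8 and Grn, with differences of 0.0789 and 0.0864, and for Hp they were Cox10 and Tgfbr2, with 0.0835 and 0.0894. Orm1 was closest to Dpp7 (0.0806) and Hps4 (0.0881), and Crp to Zfp385a (0.0445) and Tmem94 (0.0597). Saa4 was closest to Gm4952 (0.276) and Cyp2c23 (0.298), Saa1 to Ucp2 (0.187) and H2-Eb1 (0.329), and Saa2 to the collagen genes Col14a1 (0.174) and Col1a2 (0.249). Saa3 was closest to Hist1h1c (0.256), Orm2 to Akap2 (0.340) and Sesn2 (0.344), and Lcn2 to Gpat3 (0.410) and Igfbp1 (0.423). None of the 10 genes was among the 2 nearest of another, although only those of at least 10 CPM could be.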

How the data were processed

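The authors deposited 1 table of expected counts, estimated read counts per gene, for 55450 genes in 6 libraries. Between 4.93% and 5.47% of the values in a library were not whole. Per the labels' protocols, about 20 mg of frozen tissue, RNA with an integrity number above 8.0, 200.0 ng of input, a TruSeq mRNA kit and paired reads of 76 nt were used, with the 6 libraries in 1 pool. Per the submitters' processing notes, bcl2fastq 2.17, cutadapt 1.18, STAR 2.7.0f and RSEM 1.3.1 were used, and the build mm9 is named there. All 55450 versioned identifiers in the table were found in GENCODE M21 (GRCm38), so gene positions are from GENCODE M21 and promoters from RefSeq on GRCm38.p6, not from mm9. The use of strand is not given in the sources used here. No exon of another gene overlapped an exon of the 10 genes in that annotation.

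Expected counts were rounded, filtered with filterByExpr by group (14539 genes kept) and scaled by TMM. KO and WT were compared with edgeR 4.0.16 (glmQLFit, glmQLFTest, group as the only term, R 4.3.3), with Benjamini-Hochberg adjustment over all genes tested and a threshold of 0.05. The SE is the log2 fold change divided by the square root of F, and the 95% interval uses its degrees of freedom. CPM uses TMM-scaled library sizes, and log2 CPM a prior count of 2. CPM per kb uses the principal GENCODE transcript. Alternatives used DESeq2 1.42.0 and limma 3.58.1. The fit was tested on simulated data with 200 changed genes. It called 0 of the 200 at a 2-fold change and 165 (82.5%) at a 4-fold change, with 1 and 8 false calls. A gene that was not called can therefore still differ by 2-fold or more. The simulated KO libraries were alike, whereas KO 1 stood apart here, so these shares need not hold for the real libraries. Saa4 was not called over all 6 libraries, although its WT mean was 6.17 times its KO mean. Groups and replicate numbers come from the titles, and every column of the table matched a sample. The libraries are from separate mice per the labels.

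The genes, lists and tests were chosen with earlier results of these data known. The motif window was set after the sequences were seen. Named genes are the 10 acute phase genes, Stk11, every list gene past the threshold, a fixed set of signalling, reactant and marker genes, and the 2 nearest profiles of each of the 10. Fga, Fgg, Mt1, Mt2, Ttr, Apoa1, Il1a, Il1b, Clcf1, Hmox1, Marco, Orm3, Lep, Retn, Cidec, Fabp4, Ly6g, Hamp, Fkbp5, Cish, Tnfaip3 and Vsig4 were named after their values were seen. Of the genes these rules name, 2 are not reported here.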

Additional observations from a re-analysis of the deposited data

Results flagged for a closer look

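The genes below are among those of the 10 acute phase genes and of the gene lists for which the difference between KO and WT was not the same in the pair with Xist counts as in the 4 libraries with Y-linked counts, by the interaction term of edgeR's quasi-likelihood test with Benjamini-Hochberg adjustment over 14539 genes. The pair is 1 library against 1, so its own spread is taken from the other libraries. Its KO library, KO 1, also had more Stk11 left, 22.1 CPM against 14.4 and 11.4 CPM in KO 2 and KO 3. The Xist or Y-linked state and other traits of KO 1 cannot be told apart here. Values are the log2 difference in the pair minus that in the other 4 libraries. Of all tested genes, 2.90% passed.

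Saa4 had an interaction of 3.70 (adjusted p = 0.0372), with a log2 ratio of -0.93 in the pair and a log2 fold change of -4.63 in the other libraries. It was the only one of the 10 acute phase genes to pass. Among other positive reactants, Mt2 had -4.70 (adjusted p = 0.00187), Mt1 -3.67 (0.0293), Hamp, the iron hormone hepcidin, -2.80 (0.0279) and Apcs -1.60 (0.0316). Hamp was at 244, 729.9 and 511 CPM in KO 1 to 3 and at 701, 267 and 245 CPM in WT 1 to 3, so its direction was opposite in the subsets. Among signalling genes, Fkbp5 had -2.96 (adjusted p = 0.02), Cish -2.71 (0.0114) and Tnfaip3 -2.02 (0.04998). The macrophage markers Vsig4 and Adgre1 had 2.20 (adjusted p = 0.0306) and 1.79 (0.0452).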

How the results depend on the processing

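Over the alternatives run, the log2 fold changes of Saa1, Saa2, Saa3, Saa4, Orm1, Orm2, Hp, Hpx and Lcn2 kept their direction. That of Crp, -0.09, ran from -0.18 to 0.06 when each library was left out and was above 0 without KO 2. Of the 10 genes, 0 passed over all 6 libraries, 2 in DESeq2 (Hpx and Orm1), 7 among the 4 libraries that have Y-linked counts, and 0 to 6 when a library was left out, the 6 without KO 1 (Saa1, Saa2, Saa4, Orm1, Hp and Hpx). Leaving out any other library gave 0. Over all genes, 490 calls became 771 with no filter on low counts, 1504 with the Xist or Y-linked state as a covariate, 4847 among those 4 libraries, 2246 in DESeq2 and 6 to 4473 when a library was left out (4473 without KO 1, 86 without KO 2, 35 without KO 3, 262 without WT 1, 6 without WT 2 and 20 without WT 3). The 2 calls among the reactant and signalling lists (marker lists not counted) became 9, 16, 43 and 29 under these settings, 6 in limma voom, and 0 to 40 when a library was left out (40 without KO 1, 3 without WT 1 and 0 without any other). For the interaction, 421 genes passed, or 1607 with no filter, and then Saa1, Saa2, Saa4 and Lcn2 were past the threshold. The causes were not tested.

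The replicate numbers do not pair the mice per the labels. Deviations from the group means correlated at 0.178, 0.0443 and 0.0679 for numbers 1 to 3, and 2 of 6 samples correlated best with their own number. With the replicate block 105 genes passed, 0 of the 10 and 1 of the list genes. The lowest counts in a library were 40 for Saa3, 45 for Lcn2 and 73 for Saa2, whereas the largest SE was that of Saa4, 0.912, which had 312 to 10530 counts.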

Other observations

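The summed level of the 10 acute phase genes was 6722, 15276 and 12349.6 CPM in KO 1 to 3 and 5728, 5606 and 5869.7 CPM in WT 1 to 3. The sum followed Hp and Hpx. The sums of the Saa and Orm families went the other way. Saa1 to Saa4 together were at 101, 15.2 and 15.9 CPM in KO and at 169, 219 and 246 CPM in WT. Of this, Saa4 was 141, 203 and 221 CPM in WT. Orm1 and Orm2 together were at 297, 237 and 171 CPM in KO and at 317, 423 and 448 CPM in WT, mostly Orm1. Not every other gene was lower, since Orm2 and Lcn2 had log2 fold changes of 0.55 and 1.25 and Crp had -0.09. The ratio of Hpx to Hp in CPM was 2.29, 1.89 and 1.76 in KO and 1.58, 1.41 and 1.32 in WT, with no overlap between groups, and was highest in KO 1, the KO library with the lowest level of both genes. The ratio of Orm1 to Orm2 was 33.8, 17.2 and 45.1 in KO and 35.8, 114 and 89.8 in WT, where WT 1 lay within the KO range. These ratios were chosen after the values were seen and were not tested.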
